A study of Mus musculus with 12 samples.

Results

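Ruxolitinib, which inhibits the JAK1 and JAK2 kinases, was compared with its solvent DMSO over all genes of mouse leukaemia cells. The comparison used the 3 libraries of cells kept with 50 nM ruxolitinib and the 3 of cells kept with DMSO, 6 of the 12 libraries in the series. Genes were taken when their mean normalised read count over the 12 libraries was at least 10, which left 11484 of 24411 gene symbols. All 12 libraries were of BALB/c bone marrow cells in which retroviruses express mutant CSF3R and mutant CEBPA, so the DMSO controls carried both mutant genes too. The cells were grown in IMDM with 20% FBS for 24 h with DMSO alone, 50 nM ruxolitinib alone, 2 nM GSK-LSD1 alone (an inhibitor of the histone demethylase LSD1) or both drugs, the combination. No clone, number of animals or added cytokine is named for the cells.

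CSF3R is the receptor for granulocyte colony-stimulating factor. Like other cytokine receptors without a kinase domain of their own it signals through JAK kinases, which phosphorylate STAT transcription factors; these switch on feedback inhibitors of the CISH and SOCS family and growth genes such as the PIM kinases. CEBPA is a transcription factor of early granulocyte development, and leukaemias that carry mutations in both genes hold immature myeloid cells.

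Marker genes of several blood cell types were read in the DMSO libraries, so they did not single out a cell type. Primary granule genes summed to between 28856 and 29834 normalised read counts in the DMSO libraries, and mast cell, basophil and eosinophil genes to between 25193 and 27827, with Cpa3, a mast cell protease gene, at 10173, 10942 and 10853. Srgn, a member of the primary granule list, alone averaged 14161.9 over the DMSO and ruxolitinib libraries. Stem and progenitor genes summed to between 17741 and 18039, and monocyte and macrophage genes to between 10252 and 11584. Myb, a member of the stem and progenitor list, alone averaged 8491.3 over the DMSO and ruxolitinib libraries. Lymphocyte genes summed to between 238 and 298, with Cd4, Ms4a1 and Pax5 at 0 in all 12 libraries. The haemoglobin genes Hba-a1 and Hbb-bt were listed at 0 as well, but the erythroid list that holds them summed to between 6024 and 6620. In bulk RNA of this kind, fewer cells of a type and less RNA per cell cannot be told apart. Reads from the retroviral copies may be counted under Csf3r and Cebpa.

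Few genes passed the test for ruxolitinib, and most of those changed by less than 1.5-fold. Of the 11484 genes, 187 passed the test (1.63%; limma on log2 of the normalised read count plus 1, Benjamini-Hochberg adjusted p under 0.05), and 2012 had an unadjusted p under 0.05. Among them 115 rose (1.00%) and 72 fell (0.627%). The median log2 fold change was 0.44 among the rises and -0.35 among the falls. Only 9 rises and 4 falls reached 2-fold, and 88 rises and 63 falls stayed under 1.5-fold. Over all genes tested the median log2 fold change was 0.00, and 2720 genes (23.7%) had no overlap between the 3 DMSO and the 3 ruxolitinib libraries. All but 1 of the 187 genes that passed were without overlap, so its absence adds no support to a call.

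**Figure D1:**
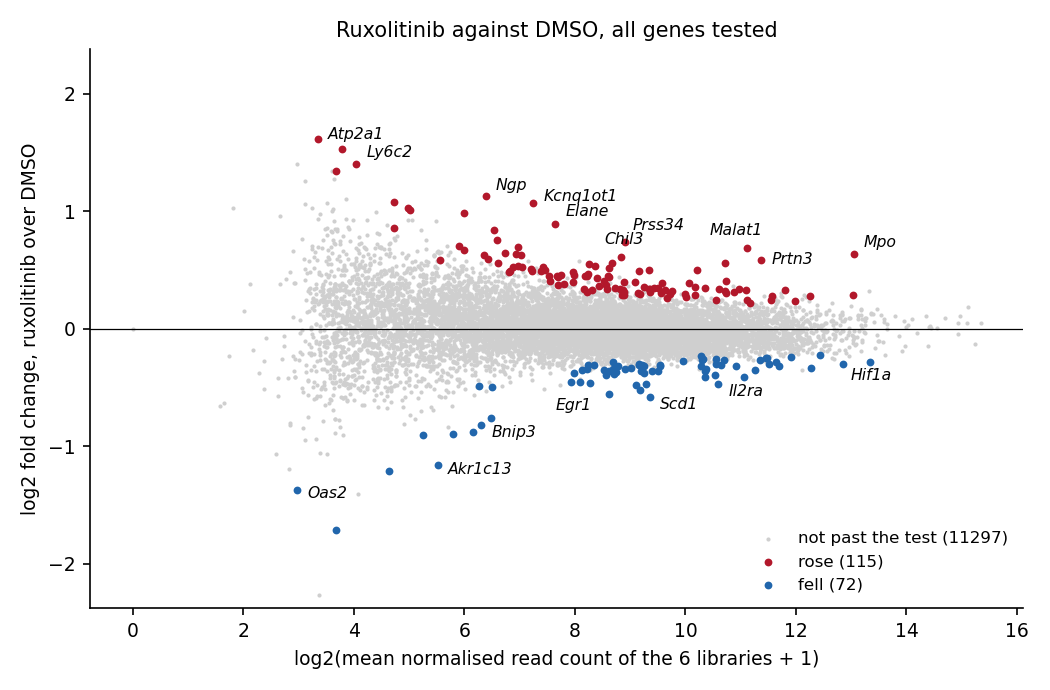
Each point is 1 of the 11484 genes, with the log2 mean normalised read count of the 6 libraries (plus 1) on the x axis and the log2 fold change of ruxolitinib over DMSO on the y axis. The 115 rises (red) include Mpo at the high end and Elane and Ngp in the middle of the range, whereas the 72 falls (blue) are mostly small changes of well expressed genes.

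The ruxolitinib libraries differed among themselves more than the DMSO libraries did. Pairs of DMSO libraries had a chi-square per degree of freedom of 1.73 to 1.89, where counting error alone gives about 1, ruxolitinib 1 and 3 had 2.93, and ruxolitinib 2 had 6.06 and 6.38 against the other two. Ruxolitinib 2 also leaned towards genes of high GC content, with a Spearman correlation of 0.369 over 11053 genes between its deviation and transcript GC, and combination 3 stood apart in the same way (0.47). The log2 fold change itself rose with GC content (rho 0.415, and 0.244 without these 2 libraries, a description over genes that share the libraries). Median GC was 54.5% among the rises, 45.7% among the falls and 49.7% over all genes tested. The part of GC content in any single change was not tested, so counts are also given after each library had been corrected for its trend with GC, and without ruxolitinib 2 and combination 3. Each of these gave more calls than the 187: 139 rises and 144 falls after GC correction, 149 and 168 without the 2 libraries.

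**Figure D2:**
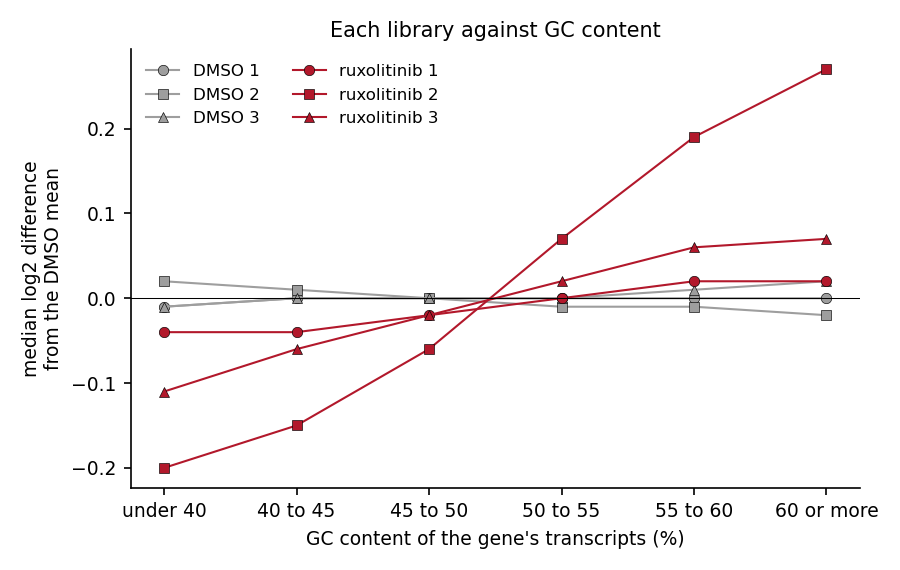
Lines show, for the 3 DMSO (grey) and 3 ruxolitinib (red) libraries, the median log2 difference from the DMSO mean in 6 bins of transcript GC content (in %). Ruxolitinib 2 ran from -0.20 in genes under 40% GC to 0.27 in genes at 60% or more, ruxolitinib 3 from -0.11 to 0.07 and ruxolitinib 1 from -0.04 to 0.02.

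Which genes passed depended on single libraries. With 1 of the 12 left out, between 32 genes (without DMSO 3) and 551 (without combination 3) passed. There were 58 without DMSO 1, 69 without DMSO 2, 41 without ruxolitinib 2 and 117 to 121 without GSK-LSD1 3 or 2. Passing in all 12 of these fits were 21 genes, 16 that rose and 5 that fell. The rises were Elane, Mpo, Prtn3, Chil3, Prss34, Gstm1, Hk3, Aatk, Adam11, Plxnd1, Tcn2, St3gal1, Stag3, Msh5, Rtkn2 and 1700020L24Rik, and the falls were Akr1c13, Saa3, Ppic, Lrp12 and Casp6. This list was drawn up after the values were seen.

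The sequences below, from 250 bases before to 50 bases after the RefSeq start site (GRCm38.p6), are shown for 5 genes whose families are described next. They are the promoters of Mpo and Ngp, which rose, of Hmgcs1 and Slc16a3, which fell, and of Cish, the STAT feedback gene with 2 STAT motifs, which did not pass. Capitals mark matches on either strand to TTCNNNGAA (STAT), TTGCNNAA (C/EBP), AGAGGAAG (PU.1), ACGTG (the core of the hypoxia response element) or TCACNCCAC (SREBP). The windows are chr11:87793534-87793833, plus strand (Mpo), chr9:110419558-110419857, plus strand (Ngp), chr9:107296409-107296708, plus strand (Cish), chr13:119690101-119690400, plus strand (Hmgcs1) and chr11:120948817-120949116, plus strand (Slc16a3).
Mpo: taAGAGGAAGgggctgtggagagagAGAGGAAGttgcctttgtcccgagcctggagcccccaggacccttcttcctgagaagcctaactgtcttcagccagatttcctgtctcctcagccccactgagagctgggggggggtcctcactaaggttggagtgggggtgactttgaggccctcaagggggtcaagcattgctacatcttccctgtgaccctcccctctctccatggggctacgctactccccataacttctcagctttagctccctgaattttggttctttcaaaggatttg
Ngp: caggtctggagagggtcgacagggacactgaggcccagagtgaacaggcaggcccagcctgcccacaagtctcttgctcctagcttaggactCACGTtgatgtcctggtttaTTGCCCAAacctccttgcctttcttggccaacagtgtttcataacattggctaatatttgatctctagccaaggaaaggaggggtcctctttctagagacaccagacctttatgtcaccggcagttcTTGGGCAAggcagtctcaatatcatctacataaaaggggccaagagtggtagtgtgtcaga
Cish: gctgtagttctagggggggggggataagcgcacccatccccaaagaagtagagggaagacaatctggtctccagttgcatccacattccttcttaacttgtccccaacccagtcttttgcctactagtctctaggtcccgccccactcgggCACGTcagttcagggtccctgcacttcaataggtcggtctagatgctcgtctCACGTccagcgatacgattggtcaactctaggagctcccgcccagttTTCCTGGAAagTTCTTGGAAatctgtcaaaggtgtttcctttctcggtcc
Hmgcs1: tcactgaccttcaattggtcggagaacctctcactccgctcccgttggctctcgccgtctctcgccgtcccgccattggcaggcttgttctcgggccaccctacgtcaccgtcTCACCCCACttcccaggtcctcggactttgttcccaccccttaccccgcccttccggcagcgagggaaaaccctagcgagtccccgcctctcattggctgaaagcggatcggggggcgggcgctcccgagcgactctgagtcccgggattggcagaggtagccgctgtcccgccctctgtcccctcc
Slc16a3: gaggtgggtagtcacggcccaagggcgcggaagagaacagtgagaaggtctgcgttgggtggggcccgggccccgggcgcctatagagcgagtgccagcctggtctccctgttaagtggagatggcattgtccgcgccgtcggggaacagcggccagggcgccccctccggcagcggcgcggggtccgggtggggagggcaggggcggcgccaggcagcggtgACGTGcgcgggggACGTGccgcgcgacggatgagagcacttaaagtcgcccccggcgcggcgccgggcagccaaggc

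Mpo held 2 matches to the PU.1 letters, Ngp 2 to the C/EBP letters and 1 to the ACGTG core, Cish 2 to the STAT letters and 2 to the core, Slc16a3 2 to the core, and Hmgcs1 1 to the SREBP letters. A match of letters is no evidence of binding. The STAT letters were in 7.32% of 123 promoters of 91 rising genes, in 5.26% of 57 promoters of 47 falling genes against 7.14% of the promoters of genes tested and 8.3% of all 32851 promoters. The PU.1 letters were in 12.2% of the rising and 0 of the falling promoters, against 4.61% of the promoters of genes tested and 4.55% of all. The SREBP letters were in 10.53% of the falling promoters (6 of 57) and 1.63% of the rising ones, against 1.17% of those of genes tested and 1.24% of all. For the C/EBP letters the shares were 13.01% among rises, 8.77% among falls, 8.45% among genes tested and 10.8% over all promoters, and for the ACGTG core they were 21.14%, 31.58%, 26.06% and 19.62%. These shares were not tested, and they come from genes of unlike GC content.

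Genes of the kinases that ruxolitinib blocks, and of the STAT factors below them, did not pass the test. None of the 10 JAK and STAT genes tested passed, and their log2 fold changes lay between -0.13 and 0.21 with a median of 0.01. Jak2, a kinase that ruxolitinib inhibits, read 1519, 1524 and 1497 normalised read counts in DMSO and 1314, 1269.9 and 1574 after the drug (log2 fold change -0.13 ± 0.07 SE, adjusted p = 0.364), and Jak1, the other, had a log2 fold change of -0.05. Stat5a and Stat3, which overlap at their ends on opposite strands, had 0.00 and -0.04, and Stat5b 0.10. The feedback inhibitor Cish read 138, 147 and 142 in DMSO and 109, 160.3 and 138 after ruxolitinib. Its ruxolitinib libraries lay on both sides of the DMSO libraries (log2 fold change -0.08 ± 0.13 SE, adjusted p = 0.787). Socs1, Socs2 and Socs3, inhibitors of the same family, had log2 fold changes of -0.12, 0.03 and -0.02. The kinase genes Pim1 and Pim2, the survival genes Bcl2l1 and Mcl1 and the growth regulator Myc had 0.05, -0.05, -0.12, -0.11 and 0.03, none past the test.

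Of 20 STAT feedback and target genes 2 fell, against 0.627% of all genes that fell, and none rose (median -0.07). The falls were 3 after GC correction, 4 without ruxolitinib 2 and combination 3 and 5 with both, and none rose in these fits. Il2ra, the alpha chain of the interleukin-2 receptor, read 1727, 1715 and 1891 in DMSO and 1131, 1196 and 1563 after ruxolitinib. All 3 ruxolitinib libraries were below the lowest DMSO library, ruxolitinib 3 the least so (log2 fold change -0.47 ± 0.09 SE, adjusted p = 0.00874). Osm, the cytokine oncostatin M, went from 784, 864 and 823 to 634, 643 and 714, also without overlap (log2 fold change -0.31 ± 0.06 SE, adjusted p = 0.0165). Egr1, a transcription factor of the immediate early response to growth signals, was the single member of 20 immediate early and MAPK feedback genes to pass. It fell from 454, 462 and 489 to 284, 336 and 339, with every ruxolitinib library below every DMSO library (log2 fold change -0.55 ± 0.10 SE, adjusted p = 0.00874). The other 19 lay between -0.36 (Fosl1) and 0.21 (Jund), and the list's median was -0.11; 3 members fell after GC correction and 2 without the 2 libraries. Of 23 interferon-stimulated genes none passed (median -0.01), with Irf1 at 0.13; Oas2, an interferon-inducible antiviral enzyme outside that list, fell but at levels of 8.94, 10 and 11.9 in DMSO and 2.98, 4.11 and 2.96 after the drug. None of 13 chemokine, cytokine and NF-kB genes passed.

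Among 18 myeloid cytokine receptors, 2 rose, against 1.00% of all genes tested, and none fell (median 0.07). Csf2ra, the alpha chain of the receptor for granulocyte-macrophage colony-stimulating factor, read 231, 267 and 238 in DMSO and 351, 358 and 297 after ruxolitinib, with no overlap (log2 fold change 0.45 ± 0.10 SE, adjusted p = 0.0262). Il3ra, its counterpart for interleukin-3, went from 282, 316 and 302 to 335, 442 and 389 (log2 fold change 0.37 ± 0.09 SE, adjusted p = 0.0486). The common beta chain gene Csf2rb, read at 30957, 31690 and 30137 in DMSO, had a log2 fold change of 0.04 ± 0.06 SE. Csf3r read 1644, 1697 and 1511 in DMSO and 1674, 1899.7 and 1748 after the drug, with overlapping groups (log2 fold change 0.13 ± 0.09 SE, adjusted p = 0.482). Of the 5 calls named for receptors and signalling targets (Csf2ra, Il3ra, Il2ra, Osm and Egr1), 4 were also made after GC correction and 4 without ruxolitinib 2 and combination 3, and Il3ra was the one that missed (adjusted p = 0.0665 and 0.0641). All 5 missed without DMSO 3 (adjusted p = 0.0657 to 0.155). From the 6 DMSO and ruxolitinib libraries alone, with the replicate number as a block, after quantile normalisation and with no filter on low values, 3, 4, 4 and 3 of the 5 passed. Il3ra also missed without any other library but ruxolitinib 1 and combination 3, Csf2ra without DMSO 1, ruxolitinib 1 or 2, and Osm without DMSO 2, ruxolitinib 1 or 2 (adjusted p = 0.0525 to 0.226).

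Granule genes of the early neutrophil were among the rises. Primary granules store the proteases and peroxidase that neutrophils use to kill microbes, and their genes are expressed in promyelocytes. Of 11 such genes tested, 5 rose and none fell, against 1.00% of all genes that rose, and the median log2 fold change was 0.39 against 0.00 over all genes. Elane, neutrophil elastase (chromosome 10, 79886247 to 79888215, plus strand, GRCm38), read 144, 135 and 134 normalised read counts in DMSO and 274, 303 and 202 after ruxolitinib. The lowest ruxolitinib library, ruxolitinib 3, was still above the highest DMSO library (log2 fold change 0.89 ± 0.14 SE, adjusted p = 0.00251).

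Mpo, the myeloperoxidase of these granules (chromosome 11, 87793581 to 87804413, plus strand), went from 6720.1, 6385 and 6591 to 10693, 11874 and 8395 (log2 fold change 0.64 ± 0.08 SE, adjusted p = 0.000541). Prtn3, proteinase 3 (chromosome 10, 79874476 to 79883174, plus strand), went from 2204, 2002 and 2085 to 3425, 3530.3 and 2581 (log2 fold change 0.59 ± 0.09 SE, adjusted p = 0.00204). Plppr3 overlaps it on the opposite strand, and the strand of the counting is not stated. Ctsg, cathepsin G, read 943, 1028 and 953 in DMSO and 1562, 1541 and 1090 after the drug (log2 fold change 0.50 ± 0.09 SE, adjusted p = 0.00874). In all 4 genes ruxolitinib 1 and 2 were high and ruxolitinib 3 lay between them and DMSO. Prss57, a further granule serine protease, rose from 752, 589 and 636 to 885, 931 and 771 (log2 fold change 0.39 ± 0.09 SE, adjusted p = 0.0232), and its lowest ruxolitinib library was just above its highest DMSO library.

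Members of the list that did not pass were Ms4a3 (0.39), Cst7, Nkg7, Srgn and Serpinb1a, all above 0, and Ctsc, the gene of cathepsin C, at -0.15. Every ruxolitinib library of Ctsc lay below every DMSO library. Median deviations of the list from the DMSO mean were -0.04 to 0.02 in the DMSO libraries and 0.43, 0.46 and 0.19 in ruxolitinib 1, 2 and 3. All 5 calls were also made after GC correction, which added a sixth, without ruxolitinib 2 and combination 3, with the replicate block and after quantile normalisation. From the 6 libraries alone and with no filter Prss57 missed (adjusted p = 0.0542 and 0.0545). Elane, Mpo and Prtn3 passed with any single library left out. Ctsg missed without DMSO 1, DMSO 3 or ruxolitinib 2, and Prss57 without DMSO 2, DMSO 3, ruxolitinib 1 or ruxolitinib 2 (adjusted p = 0.0527 to 0.136).

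**Figure D3:**
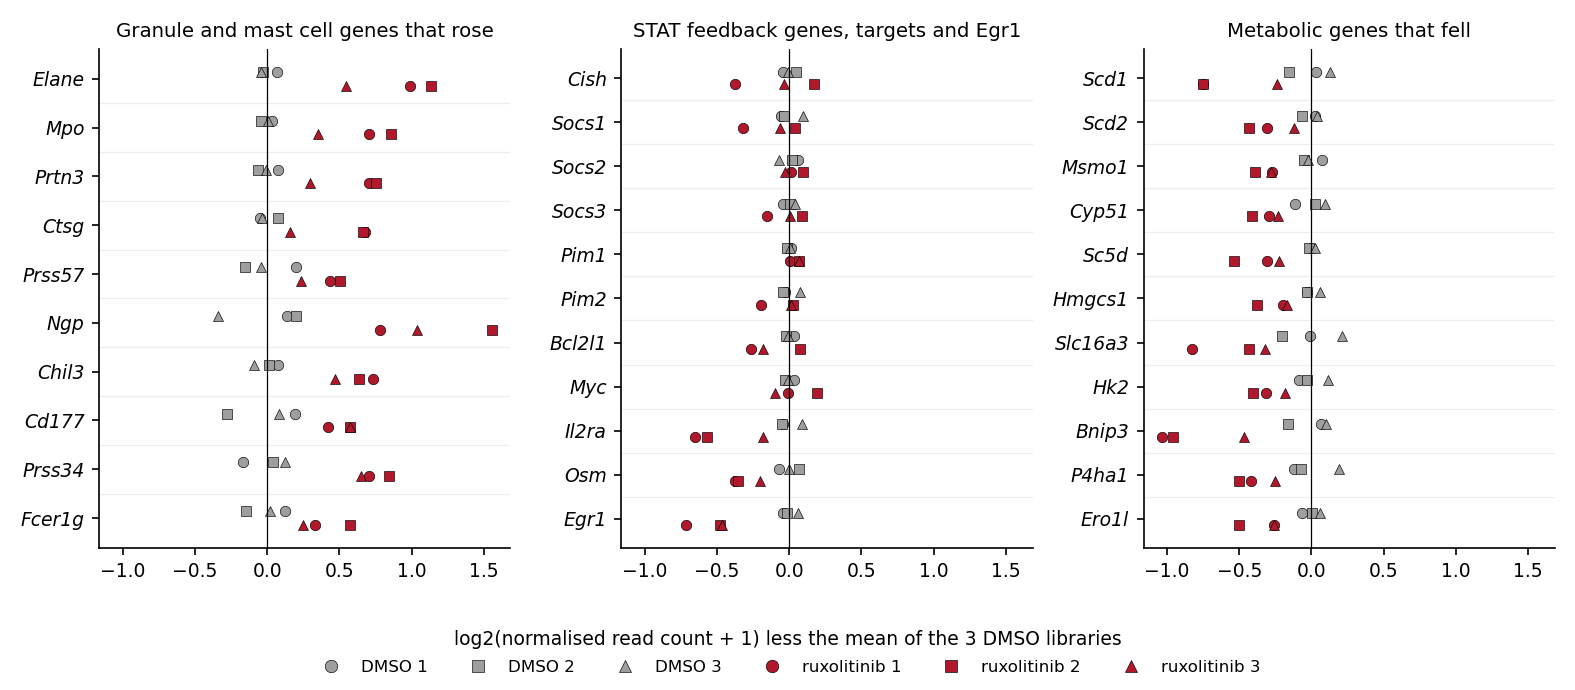
Each row is a gene and each symbol a library (grey DMSO, red ruxolitinib), plotted as log2(normalised read count + 1) less the mean of the 3 DMSO libraries. The granule and mast cell genes at left and the metabolic genes at right were chosen among genes that passed, and had no overlap between the groups. Cish, Socs1, Socs2, Socs3 and Myc in the middle panel had ruxolitinib libraries on both sides of the DMSO mean.

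Genes of the later granules moved less evenly. Secondary and tertiary granules are filled in myelocytes and later stages. Of their genes 3 of 14 tested rose, against 1.00% of all genes tested, none fell, and the median was 0.31. Ngp, neutrophilic granule protein, went from 55.6, 58 and 39.6 to 87.5, 150 and 105, the largest rise of this list to pass (log2 fold change 1.13 ± 0.20 SE, adjusted p = 0.00722). Chil3, which encodes the chitinase-like protein Ym1, went from 377, 362 and 336 to 597, 556 and 496 (log2 fold change 0.61 ± 0.08 SE, adjusted p = 0.000454). Cd177, a neutrophil surface protein, read 122, 88 and 113 in DMSO and 143, 159 and 159 after ruxolitinib (log2 fold change 0.52 ± 0.12 SE, adjusted p = 0.032). None of the 3 had overlapping groups. Mmp8, the neutrophil collagenase, read 2252, 2018 and 1953 in DMSO and 2040.5, 1991 and 1764 after the drug, and its groups overlapped (log2 fold change -0.10 ± 0.07 SE, adjusted p = 0.493). Lcn2, Lyz2 and Pglyrp1 had 0.31, 0.27 and 0.57 and did not pass, and Ltf, lactoferrin, was read at no more than 12.9 in any of the 6 libraries.

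In the list of mature neutrophil genes 2 of 16 rose, against 1.00% of all genes tested, and none fell (median 0.18). Anxa1, annexin A1, rose (0.34, adjusted p = 0.0303), as did Fcgr3, a low-affinity IgG receptor (0.30, adjusted p = 0.0412). Itgam, the CD11b chain that marks maturing granulocytes, read 349.6, 311 and 292 in DMSO and 340.2, 343 and 355 after ruxolitinib with overlapping groups (log2 fold change 0.13 ± 0.08 SE, adjusted p = 0.43). The near-identical genes Ly6c1 and Ly6c2, surface proteins of myeloid cells, rose by 1.07 and 1.40 on the log2 scale from DMSO levels of 5 to 19.9, and reads may be split between them. Of the 7 calls named for later granules and neutrophil genes, 7 were also made after GC correction and 6 without ruxolitinib 2 and combination 3 (Fcgr3, adjusted p = 0.0606). From the 6 DMSO and ruxolitinib libraries alone 2 of the 7 passed, Ngp and Chil3, and with no filter 3 did; with the replicate block and after quantile normalisation 6 did. Chil3 passed with any library left out. Ngp missed without DMSO 3; 5 of the 7 missed without DMSO 3 and 5 without ruxolitinib 2, and 1 to 4 without DMSO 1, DMSO 2, ruxolitinib 1, ruxolitinib 3, any of the GSK-LSD1 libraries or combination 2 (adjusted p = 0.0533 to 0.195).

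The myeloid transcription factors, which include some of other lineages, mostly did not pass: 1 of 15 rose, against 1.00% of all genes tested (median 0.06). Cebpa read 9498, 9086 and 9713 in DMSO and 8737, 11208 and 10261 after the drug, with ruxolitinib 1 below and ruxolitinib 2 and 3 above all DMSO libraries (log2 fold change 0.09 ± 0.09 SE, adjusted p = 0.64). Cebpe, which drives the later granule genes, read 136, 139 and 163 and 194, 223 and 166 (log2 fold change 0.40 ± 0.11 SE, adjusted p = 0.0759). Spi1, the gene of PU.1, and Gfi1, a repressor needed for neutrophils, had 0.15 and 0.17. Gfi1b, a relative of Gfi1 that acts in erythroid and megakaryocytic cells, rose from 833, 743 and 734 to 917, 1130.2 and 858 (log2 fold change 0.32 ± 0.08 SE, adjusted p = 0.0486). It missed without 9 of the 12 libraries, all but ruxolitinib 3, combination 1 and combination 3 (adjusted p up to 0.217).

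Outside the neutrophil line, 2 rose of the 11 genes tested for mast cells, basophils and eosinophils, against 1.00% of all genes that rose (median 0.17). After GC correction 5 rose (median 0.26), without ruxolitinib 2 and combination 3 the number was 4, with both it was 5, and none fell in these fits. Prss34, a basophil and mast cell serine protease, read 318, 367 and 388 in DMSO and 583, 642 and 559 after ruxolitinib, with no overlap (log2 fold change 0.73 ± 0.09 SE, adjusted p = 0.000454). Fcer1g, the gamma chain shared by Fc receptors of mast cells and phagocytes, went from 1004, 831 and 932 to 1157, 1371 and 1095 (log2 fold change 0.39 ± 0.08 SE, adjusted p = 0.0155). The summed level of this list's 14 genes was 25193 to 27827 in DMSO and 28958 to 31333 after ruxolitinib, without overlap. The part of this shift in the granule results was not tested. Of 10 stem and progenitor genes only Sox4, a transcription factor of progenitors, rose, from 981, 1012 and 1113 to 1156, 1366 and 1273 (log2 fold change 0.29 ± 0.07 SE, adjusted p = 0.0323), while Kit, at 15.8 to 39.0, narrowly missed (adjusted p = 0.0535). None of 14 monocyte and macrophage genes passed (median -0.03) and their summed level overlapped, 10252 to 11584 in DMSO and 9909 to 10965 after the drug. None of 11 erythroid genes passed, and 8 of them were above 0 (median 0.12). Their sum went the other way, from 6024 to 6620 in DMSO to 4941 to 5941 after ruxolitinib, with Tfrc, the transferrin receptor, at -0.35 (adjusted p = 0.0851). Megakaryocyte, lymphocyte, dendritic and stromal lists had 3 to 4 members tested each, none past the test. Prss34 passed with any library left out. Fcer1g missed without DMSO 2, DMSO 3 or ruxolitinib 2, and Sox4 without these, DMSO 1, ruxolitinib 3, GSK-LSD1 2 or GSK-LSD1 3 (adjusted p = 0.0517 to 0.217). The 4 calls of Prss34, Fcer1g, Gfi1b and Sox4 were all made after GC correction and without ruxolitinib 2 and combination 3, and after quantile normalisation. The replicate block ended that of Gfi1b, and the fits of the 6 libraries alone and with no filter ended those of Gfi1b and Sox4 (adjusted p = 0.0656 to 0.105).

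**Figure D4:**
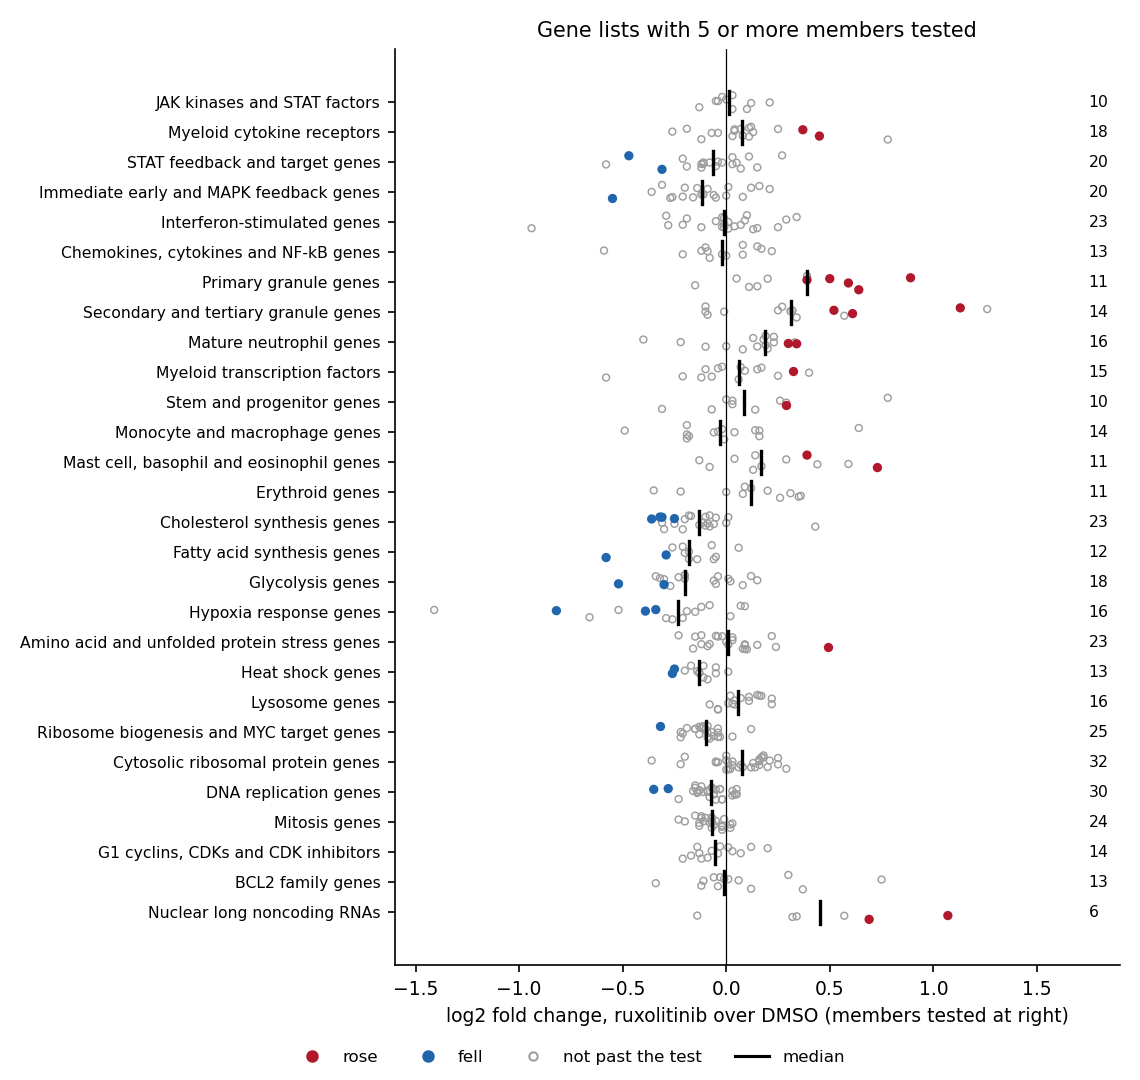
Points are the log2 fold changes of ruxolitinib over DMSO for the members of each gene list with at least 5 members tested (red rose, blue fell, open not past the test) and bars their medians. The medians of the 2 granule lists lie at 0.39 and 0.31, and those of the cholesterol, fatty acid, glycolysis and hypoxia lists between -0.13 and -0.23.

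Some genes of lipid synthesis were lower. Of 23 genes of cholesterol synthesis and its control, 4 fell and none rose, against 0.627% of all genes that fell, with a median of -0.13. Msmo1, an enzyme of the later part of the pathway, read 1448, 1327 and 1353 in DMSO and 1140.1, 1048 and 1129.5 after ruxolitinib (log2 fold change -0.32 ± 0.06 SE, adjusted p = 0.0128). Cyp51, the sterol 14-alpha demethylase, Sc5d, a sterol desaturase, and Hmgcs1, an early enzyme of the pathway whose promoter is shown above, fell by 0.31, 0.36 and 0.25 on the log2 scale. In all 4 genes every ruxolitinib library lay below every DMSO library, and ruxolitinib 2 was the lowest of them. Akap9 overlaps Cyp51 on the opposite strand. Of the other members, Sqle and Insig1 had -0.21 and -0.30, Srebf2, which encodes the factor that controls the pathway, 0.00, and none passed.

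Of 12 genes of fatty acid synthesis 2 fell, against 0.627% of all genes tested, and none rose (median -0.18). Both that fell encode stearoyl-CoA desaturases, which make monounsaturated fatty acids. Scd1 read 796, 699 and 851 in DMSO and 463, 463 and 661 after ruxolitinib (log2 fold change -0.58 ± 0.11 SE, adjusted p = 0.00868). Ruxolitinib 3 was the nearest to the DMSO libraries, without overlap. Scd2 had the smaller change, from 11542, 10884 and 11681 to 9168, 8416 and 10469.8 (log2 fold change -0.29 ± 0.07 SE, adjusted p = 0.0369). All 6 calls for lipid synthesis were also made after GC correction and without ruxolitinib 2 and combination 3, and 4 of the 6 with both. With the replicate block, from the 6 libraries alone and with no filter 3 of the 6 passed, Msmo1, Cyp51 and Scd1, and after quantile normalisation 4 did. All 6 missed without DMSO 3, 5 without ruxolitinib 2 (not Scd1), 4 without DMSO 1, 4 without DMSO 2, and 1 to 3 without ruxolitinib 1, any GSK-LSD1 library or combination 2 (adjusted p = 0.0519 to 0.181).

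Some transcripts of glucose use and of the hypoxia response were lower as well. Of 18 glycolysis genes 2 fell, against 0.627% of all genes tested, and none rose (median -0.20). Slc16a3, which exports lactate and whose promoter is shown above, read 673, 587 and 786 in DMSO and 382, 502 and 542 after ruxolitinib (log2 fold change -0.52 ± 0.13 SE, adjusted p = 0.0369). Hk2, the hexokinase that starts glycolysis in growing cells, went from 1560.1, 1620.4 and 1790.4 to 1329, 1248 and 1459 (log2 fold change -0.30 ± 0.07 SE, adjusted p = 0.0306). Neither had overlapping groups. Ldha, lactate dehydrogenase A, read 13460.1, 13087 and 14036 and 11484, 11047 and 12194 without overlap and just missed the test (log2 fold change -0.23 ± 0.06 SE, adjusted p = 0.0528), and Slc2a1, a glucose transporter, had -0.27 (adjusted p = 0.0686). A second lactate carrier outside the list, Slc16a1, fell by 0.32 on the log2 scale (adjusted p = 0.0241).

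In the hypoxia list 3 of 16 genes fell, Bnip3, P4ha1 and Ero1l, against 0.627% of all genes tested, and none rose (median -0.23). Bnip3, a regulator of mitophagy (chromosome 7, 138890836 to 138909519, minus strand), read 103, 88 and 106 in DMSO and 47.8, 50.3 and 71.2 after the drug, with all 3 ruxolitinib libraries below the DMSO libraries (log2 fold change -0.82 ± 0.17 SE, adjusted p = 0.0148). P4ha1, a collagen prolyl hydroxylase, went from 434, 449 and 539.7 to 353, 334 and 396 (log2 fold change -0.39 ± 0.09 SE, adjusted p = 0.0346). Ero1l, the oxidase that feeds disulfide bonds to secreted proteins, went from 5254, 5511 and 5738 to 4594, 3892 and 4603 (log2 fold change -0.34 ± 0.07 SE, adjusted p = 0.0132). Outside the list, Plod2, a lysyl hydroxylase of collagen, fell by 0.46 on the log2 scale (adjusted p = 0.0128). Hif1a, which encodes the oxygen-regulated factor of this response and is not in the list either, fell from 8182, 8096 and 8059 to 6707, 6134 and 6984 (log2 fold change -0.30 ± 0.07 SE, adjusted p = 0.027); it and Slc16a1 lie outside the naming rule and were chosen after their values were seen. Vegfa, Car9 and Pdk1 had 0.07, 0.02 and -0.26 and did not pass.

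The 8 calls named here for glycolysis and hypoxia (Slc16a3, Slc16a1, Hk2, Bnip3, P4ha1, Ero1l, Plod2 and Hif1a) were all made after GC correction and without ruxolitinib 2 and combination 3. After GC correction 7 glycolysis and 8 hypoxia genes fell and none rose, and without the 2 libraries 8 and 4 did. From the 6 libraries alone 6 of the 8 calls were made, with the replicate block 5, after quantile normalisation 6 and with no filter 3. With ruxolitinib 2 alone left out, or DMSO 3 alone, none of the 8 passed. Leaving out DMSO 1 or DMSO 2 ended 6 of the calls each, ruxolitinib 1 ended 4, GSK-LSD1 2 ended 2 and GSK-LSD1 3 ended 3 (adjusted p = 0.0517 to 0.204 over these fits).

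Few growth genes passed the test. Hells, a chromatin remodelling enzyme, read 1530.3, 1423 and 1498 in DMSO and 1197, 1097 and 1207 after ruxolitinib, all below the DMSO libraries (log2 fold change -0.35 ± 0.06 SE, adjusted p = 0.00722). Rrm2, a subunit of ribonucleotide reductase, went from 3424, 3458 and 3672 to 3128, 2682 and 2867 (log2 fold change -0.28 ± 0.06 SE, adjusted p = 0.0169). They were the 2 of 30 DNA replication genes that fell, against 0.627% of all genes tested. None of the 30 rose, the median was -0.08, and after GC correction 4 fell. None of 24 mitosis genes (median -0.07), 14 G1 cyclin, CDK and CDK inhibitor genes (-0.05) or 13 BCL2 family genes (-0.01) passed. Below 0 were 24 of the 30 DNA replication genes, 21 of the 24 mitosis genes, 9 of the 14 and 7 of the 13. Over all 11484 genes tested 5777 were below 0. Among 25 ribosome biogenesis and MYC target genes Hspd1 fell and none rose (median -0.10), and 23 of the 25 were below 0. The falls of this list were 4 after GC correction, 5 without ruxolitinib 2 and combination 3 and 8 with both, and none rose. No cytosolic ribosomal protein gene of 32 passed (median 0.07).

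Hspd1, the mitochondrial chaperonin, went from 3564, 3691 and 3750 to 2943, 2835 and 3056 (log2 fold change -0.32 ± 0.07 SE, adjusted p = 0.0168), and Hspe1 overlaps it on the opposite strand. Of 13 heat shock genes 2 fell, against 0.627% of all genes tested, and none rose (median -0.13). Without the 2 libraries 5 fell. Hsp90aa1, the inducible form of the chaperone HSP90, went from 3095, 2962 and 3068 to 2559.8, 2479 and 2629 (log2 fold change -0.25 ± 0.05 SE, adjusted p = 0.0194), and Hsph1, a co-chaperone of HSP70, fell by 0.26 (adjusted p = 0.0393). In 23 genes of amino acid and unfolded protein stress Trib3, a stress-induced pseudokinase, rose (0.49, adjusted p = 0.0473) and none fell. Hspa5, the endoplasmic reticulum chaperone BiP, read 8392, 8639 and 8935 and 7744, 6932 and 7452 without overlap and just missed (log2 fold change -0.23 ± 0.06 SE, adjusted p = 0.0535). No lysosome gene of 16 passed. Of the 6 calls for Hells, Rrm2, Hspd1, Hsp90aa1, Hsph1 and Trib3, 5 were made after GC correction (Trib3, adjusted p = 0.0851) and 6 without ruxolitinib 2 and combination 3. The fits of the 6 libraries alone, with the replicate block, after quantile normalisation and with no filter made 4 of the 6 each. All 6 missed without DMSO 3, 5 (not Hells) without DMSO 1, DMSO 2 or ruxolitinib 2, and 1 or 2 without ruxolitinib 1, any GSK-LSD1 library, combination 1 or combination 2 (adjusted p = 0.0503 to 0.204).

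Of 6 nuclear long noncoding RNAs 2 rose, against 1.00% of all genes tested, and none fell (median 0.45). Malat1, a nuclear RNA of splicing speckles, read 1453, 2232 and 1432 in DMSO and 2715, 3227 and 2218 after ruxolitinib (log2 fold change 0.69 ± 0.15 SE, adjusted p = 0.0207). DMSO 2 was just above the lowest ruxolitinib library, which made Malat1 the single one of the 187 called genes whose groups overlapped. Kcnq1ot1, an imprinted antisense RNA inside Kcnq1, went from 89.4, 125 and 73.3 to 194, 284 and 140.3 (log2 fold change 1.07 ± 0.25 SE, adjusted p = 0.0342). Neat1, the RNA of paraspeckles, had 0.34 and did not pass. Median deviations of the list from the DMSO mean were -0.07, 0.33 and -0.23 in the DMSO libraries and 0.41 to 0.42 in the ruxolitinib libraries, a wider spread among the DMSO libraries than in any other list. RNA quality is not given for these libraries, and its part was not tested. Both calls missed without DMSO 1, DMSO 3, ruxolitinib 1 or ruxolitinib 2, and that of Kcnq1ot1 without GSK-LSD1 3 (adjusted p = 0.0523 to 0.18). With no filter neither passed (Malat1, adjusted p = 0.0732, and Kcnq1ot1, 0.0964), and after quantile normalisation Kcnq1ot1 missed (0.0588). Both were made after GC correction, when 3 of the list rose, without ruxolitinib 2 and combination 3, when 4 did, from the 6 libraries alone and with the replicate block.

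Large single changes were seen in genes outside these lists and at low levels, and predicted genes are left out here except for Gm1821. This processed pseudogene had the largest change of the 187, from 15.9, 26 and 13.9 in DMSO to 4.97, 3.08 and 6.92 after ruxolitinib (log2 fold change -1.71 ± 0.44 SE, adjusted p = 0.0489); it was chosen after its values were seen, and reads of a near-identical gene may be counted there. Atp2a1, a calcium pump of muscle, read 2.98, 5 and 3.96 in DMSO and 11.9, 12.3 and 18.8 after ruxolitinib (log2 fold change 1.62 ± 0.34 SE, adjusted p = 0.0166), and Glis3, a zinc finger factor, 3.97, 6 and 8.91 and 15.9, 22.6 and 19.8 (log2 fold change 1.53 ± 0.35 SE, adjusted p = 0.0264). In DMSO both lay under 10, the mean that the filter asked for, so libraries of other groups carried them past it. With no filter Glis3 missed (adjusted p = 0.0754). Hrh4, the histamine H4 receptor of eosinophils and mast cells, rose by 1.34 on the log2 scale from no more than 11 (adjusted p = 0.0417). At higher levels Aatk, a kinase gene, went from 73.5, 75 and 64.4 to 119, 132 and 109 (log2 fold change 0.75 ± 0.13 SE, adjusted p = 0.00423). Gstm1, a glutathione transferase, went from 1513, 1313 and 1256 to 1861, 2434 and 1758, with ruxolitinib 2 the highest (log2 fold change 0.56 ± 0.09 SE, adjusted p = 0.00397). Igf2r, the receptor that carries lysosomal enzymes, rose (0.69, adjusted p = 0.0133), as did Ptgs1, the cyclooxygenase 1 gene (0.59), and Syne1, a nuclear envelope protein (0.63). Airn overlaps Igf2r on the opposite strand. Selm and Fam83h rose by 0.64 and 0.56. Aatk and Gstm1 passed with any library left out. Of the 10 calls from Atp2a1 to Fam83h 9 were made after GC correction (Fam83h, adjusted p = 0.0503) and 10 without ruxolitinib 2 and combination 3. From the 6 libraries alone 6 passed, with the replicate block 9, after quantile normalisation 6 and with no filter 5. Leaving out DMSO 3 or ruxolitinib 2 ended 7 each, DMSO 1 ended 6, DMSO 2 or ruxolitinib 3 ended 4 each, ruxolitinib 1 ended 3, GSK-LSD1 3 ended 2, and GSK-LSD1 1, GSK-LSD1 2, combination 1 or combination 2 ended that of Hrh4 (adjusted p = 0.0509 to 0.18).

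Falls of similar size were at low levels too. Akr1c13, an aldo-keto reductase, read 61.6, 57 and 67.3 in DMSO and 21.9, 33.9 and 26.7 after ruxolitinib (log2 fold change -1.16 ± 0.18 SE, adjusted p = 0.00251), and Moxd1, a monooxygenase-like gene, 32.8, 25 and 41.6 and 8.95, 11.3 and 23.7 (log2 fold change -1.21 ± 0.24 SE, adjusted p = 0.0128). Bmp2, a bone morphogenetic protein, fell by 0.91 on the log2 scale (adjusted p = 0.0241) and Oas2 by 1.38 (adjusted p = 0.0327). Oas2 reached the filter's mean of 10 only through libraries with GSK-LSD1, and with no filter it missed (adjusted p = 0.0606). Ppic, a cyclophilin, went from 124, 112 and 100 to 65.7, 65.8 and 65.2, with the 3 ruxolitinib libraries almost equal (log2 fold change -0.76 ± 0.14 SE, adjusted p = 0.00722). Casp6, an effector caspase, went from 313, 310.1 and 324 to 253, 231 and 206 (log2 fold change -0.46 ± 0.08 SE, adjusted p = 0.00423). Lrp12, a transmembrane receptor, went from 622, 670.2 and 635 to 504, 402 and 477 (log2 fold change -0.48 ± 0.08 SE, adjusted p = 0.00432). Ahr, the aryl hydrocarbon receptor, went from 1493, 1461 and 1520 to 1195, 983 and 1187 (log2 fold change -0.42 ± 0.08 SE, adjusted p = 0.0112). Gpr174, a G protein-coupled receptor of lymphoid cells, Ppp1r3b, which targets a phosphatase to glycogen, Pank3, which makes coenzyme A, Ptprk, a receptor phosphatase, Eps8 and Ahcyl2 fell by 0.40 to 0.50. None of these genes had overlapping groups, which the rule for naming the largest falls required. Akr1c13, Ppic, Lrp12 and Casp6 passed with any library left out. Leaving out DMSO 1, DMSO 3 or ruxolitinib 2 ended 8 of the 14 calls each, DMSO 2 ended 7, ruxolitinib 1 ended 5, and ruxolitinib 3, a GSK-LSD1 library or combination 2 ended 1 to 3 (adjusted p = 0.0511 to 0.209). All 14 were made after GC correction and 13 without ruxolitinib 2 and combination 3 (Eps8, adjusted p = 0.0677), while 9 were from the 6 libraries alone, 11 with the replicate block, 12 after quantile normalisation and 10 with no filter.

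The same dose of ruxolitinib was also given with 2 nM GSK-LSD1, and those 3 libraries were compared with the 3 that had GSK-LSD1 alone. The comparison shares no library with ruxolitinib against DMSO. Both came from 1 fit whose spread was shared by all 12 libraries, so their p-values are not independent. In it 161 genes passed (1.40%), 121 that rose and 40 that fell. Of the 115 genes that rose without GSK-LSD1, 106 (92.2%) had a positive log2 fold change with it, against 46.5% of all genes tested, and 36 passed there too. Of the 72 that fell, 69 (95.8%) had a negative one, against 53.5% of all genes, and 8 passed. Without ruxolitinib 2 and combination 3, which both lean to high GC, the shares were 93.3% of 149 rises and 90.5% of 168 falls. All genes had 46.8% and 53.2% there, and the log2 fold change still rose with GC content (rho 0.244). After GC correction the shares were 89.9% of 139 rises and 95.8% of 144 falls, against 48.1% and 51.9% of all genes. The part of GC content in these shares was not tested. The medians of the 115 and 72 genes were 0.25 and -0.20 with GSK-LSD1.

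The 8 genes that fell in both were Il2ra, Osm, Scd1, Slc16a1, Ahr, Gpr174, Nfil3 and Plxdc2. Il2ra read 2262, 2321 and 2052 with GSK-LSD1 alone and 1628, 1505 and 1474 with both drugs, again without overlap (log2 fold change -0.53 ± 0.09 SE, adjusted p = 0.00155). Osm went from 978, 1014 and 996 to 814, 770.4 and 772 (log2 fold change -0.34 ± 0.06 SE, adjusted p = 0.00498). Scd1 went from 679, 742 and 622 to 507, 488 and 479 (log2 fold change -0.47 ± 0.11 SE, adjusted p = 0.0257). The 36 rises held all 5 primary granule genes named above, all 3 secondary granule genes, Anxa1, Ly6c1, Ly6c2 and Gstm1.

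Elane read 82.9, 76.6 and 72.8 with GSK-LSD1 and 151, 131 and 176 with the combination (log2 fold change 0.96 ± 0.14 SE, adjusted p = 0.000273). Mpo went from 7042, 7160.2 and 7402 to 11974, 12041 and 12906 (log2 fold change 0.77 ± 0.08 SE, adjusted p = 2.15e-05). Ngp went from 40, 29.9 and 45.9 to 111, 93.7 and 121 (log2 fold change 1.48 ± 0.20 SE, adjusted p = 0.000138). In each of the 3 genes all combination libraries were above all GSK-LSD1 libraries. With GSK-LSD1, 6 of 11 primary granule genes rose (median 0.51), as did 11 of 14 secondary and tertiary granule genes (median 0.92) and 8 of 16 mature neutrophil genes (0.29), none falling, beside 5, 3 and 2 without it. Of all 11484 genes tested, 121 rose with GSK-LSD1. Cebpe, not past the test without GSK-LSD1, rose with it from 178, 167 and 200.4 to 300.5, 301 and 346 (log2 fold change 0.79 ± 0.11 SE, adjusted p = 0.000322), and Itgam likewise (0.55).

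The difference between the 2 effects, tested gene by gene, passed for 1 of 11484 genes (0.00871%), Mmp8, with 534 at an unadjusted p under 0.05. For Cebpe the difference was 0.39 ± 0.16 SE (adjusted p = 0.998), for Itgam 0.43 ± 0.11 (0.659), for Chil3 0.39 ± 0.11 (0.687) and for Elane 0.07 ± 0.19 (1). Mmp8 read 2252, 2018 and 1953 in DMSO and 2040.5, 1991 and 1764 with ruxolitinib, 5016, 5192 and 6006 with GSK-LSD1 and 8499, 7585 and 7974 with both. The combination libraries stood above all others, and the effect with GSK-LSD1 exceeded that without it by 0.67 ± 0.10 SE (adjusted p = 0.0236). That call was lost without DMSO 1 (adjusted p = 0.207), DMSO 2 (0.0858), ruxolitinib 3 (0.126), GSK-LSD1 1 (0.115), GSK-LSD1 2 (0.199) or combination 1 (0.115), with no filter on low values (0.216), after quantile normalisation (0.0557) and with the replicate block (0.0783).

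The long noncoding RNAs and most metabolic genes did not pass with GSK-LSD1. Malat1 read 2323, 3135 and 2994 with GSK-LSD1 and 2874, 3148 and 2306 with both drugs, groups that overlap (log2 fold change -0.02 ± 0.15 SE, adjusted p = 0.971), and Kcnq1ot1 had -0.19. The median of the 6 nuclear RNAs was -0.13 there, beside 0.45 without GSK-LSD1. Bnip3 read 121, 92.6 and 82.8 and 90.3, 74 and 90.5 (log2 fold change -0.20 ± 0.17 SE, adjusted p = 0.663), and the hypoxia list had 1 rise and no fall (median -0.07). The difference of effects did not pass for Malat1 (adjusted p = 0.689), Kcnq1ot1 (0.689) or Bnip3 (0.998), so a difference is not shown. Among the 23 cholesterol synthesis genes none passed with GSK-LSD1 (median -0.08), and of 18 glycolysis genes none did (-0.13).

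**Figure D5:**
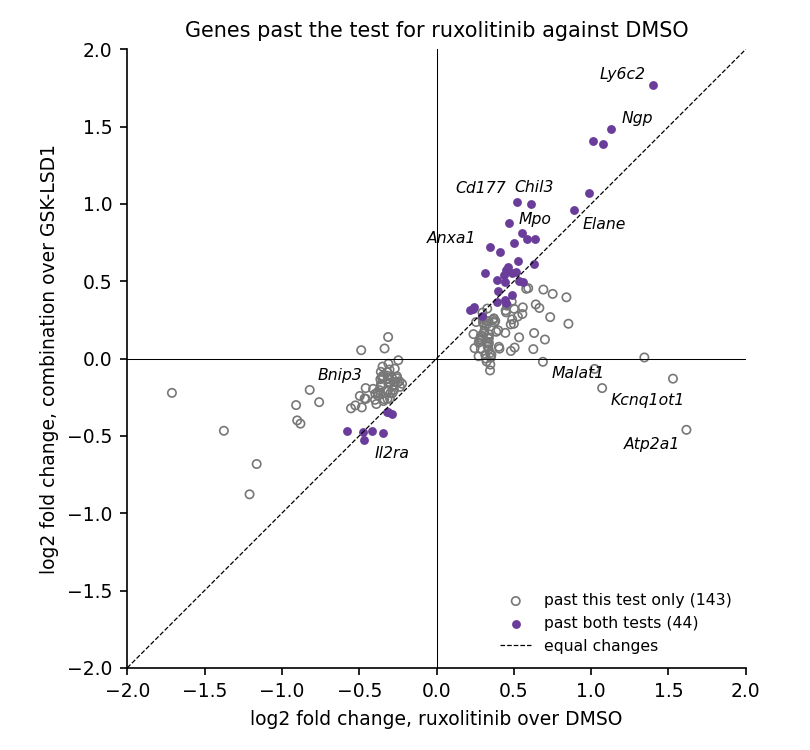
Each circle is 1 of the 187 genes past the test for ruxolitinib against DMSO, with that log2 fold change on the x axis and the log2 fold change of the combination over GSK-LSD1 on the y axis (filled, 44 genes past both tests). Ngp, Chil3 and Cd177 lie above the line of equal changes and Il2ra close to it, while Malat1, Kcnq1ot1 and Atp2a1 lie at or below 0 on the y axis.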

How the data were processed

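RNA sequencing of total RNA gave 12 libraries, 3 for each of DMSO, ruxolitinib, GSK-LSD1 and the combination, grouped by their labels. The deposited signal is, from the values, a count of reads per gene symbol scaled by the authors with 1 factor per library and raised by 1e-05; after the constant was taken off, 100% of the values of each library lay within 0.01 of a whole multiple of a step of 0.9865 to 1.027. These multiples summed to 8260995 to 8528400 per library, so depth was nearly even. Per the submitters' processing notes the processing involved STAR, DESeq2 and the builds mm10 and GRCm38, in versions and roles left unstated; the annotation, counting program and strandedness are not given in the sources used here. The values were treated as signal, and apart from the voom weights on the whole multiples given below, no test on whole reads was run.

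The 11484 genes whose mean over all libraries reached 10 were tested with limma 3.58.1 in R 4.3.3 on log2(value + 1), with 1 mean per treatment, a variance trend and 1 spread shared by all 12 libraries. P-values are two-sided, with Benjamini-Hochberg adjustment over all 11484 genes and a threshold of 0.05. Fold changes are on this log2 scale, which understates those of low genes. The labels do not say that replicates were separate cultures, so p-values measure the spread between these libraries, which may be technical. The procedure was tested on simulated data.

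The text names some or all of the genes of a rule: among called genes without overlapping groups, the 15 largest rises and falls with 100 or more as the higher group's mean and the 4 largest of each below it, the 3 smallest p of each of the 33 gene lists that held a call, and a set of JAK/STAT and myeloid genes; other list members are given as examples. The genes, lists and comparison were chosen with earlier results of these data known. A few genes of the lists and of the rule are not reported here and are left out of the list counts. Of 562 listed genes 472 were tested; no mitochondrially encoded gene was in the table. Predicted genes, and symbols turned into dates (27) or repeated (2), were tested but are outside this rule. Positions and GC content are from GENCODE vM21 (GRCm38) by symbol (GC for 23350 of 24411 symbols), promoters from RefSeq (GRCm38.p6).

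Alternatives were pseudocounts of 0.25 and 5, a filter of 50 or none, median-of-ratios scaling, quantile normalisation, the 6 DMSO and ruxolitinib libraries alone, array weights, a replicate block, a GC correction (lowess of each library's deviations on transcript GC, span 0.4), both together, and leaving out each library or both of ruxolitinib 2 and combination 3. Added after seeing the data were limma's voom weights on the whole multiples, and the last setting with GC correction.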

Additional observations from a re-analysis of the deposited data

Results flagged for a closer look

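Mmp8, the neutrophil collagenase gene, was the single gene whose response to ruxolitinib differed between cells without and with GSK-LSD1 by a test of the difference itself (limma, adjusted over 11484 genes). Its log2 fold change was -0.10 without GSK-LSD1 and 0.57 with it, a difference of 0.67 ± 0.10 SE (adjusted p = 0.0236). Without ruxolitinib 2 and combination 3 the difference was 0.70 (adjusted p = 0.000253), and over the fits that left out 1 library it was 0.61 to 0.75. The call was lost without DMSO 1, DMSO 2, ruxolitinib 3, GSK-LSD1 1, GSK-LSD1 2 or combination 1, with an adjusted p of 0.0858 to 0.207, and with the replicate block (0.0783), after quantile normalisation (0.0557) and with no filter on low values (0.216).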

How the results depend on the processing

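The count of 187 genes for ruxolitinib against DMSO (115 rises, 72 falls) stayed within 1.5 times with other pseudocounts, a mean of at least 50, median-of-ratios scaling, quantile normalisation and the replicate block with GC correction. It was 98 (60 and 38) with no filter, 82 (47 and 35) from the 6 libraries alone, 300 (158 and 142) with array weights, 283 (139 and 144) with GC correction, 317 (149 and 168) without ruxolitinib 2 and combination 3, 290 (126 and 164) with both, and 525 (284 and 241) with voom. Leaving out 1 library gave 32 to 551 calls (22 to 274 rises, 10 to 277 falls), lowest without DMSO 3 and highest without combination 3. The cause of these differences was not tested. The fit of 6 libraries had 4 residual degrees of freedom, against 8 in the main fit.

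For the combination against GSK-LSD1 the 161 calls became 427 with array weights, 286 with GC correction, 242 with replicate block and GC correction, 270 without ruxolitinib 2 and combination 3, 301 with GC correction as well, 93 with voom, and 83 (without GSK-LSD1 2) to 226 (without ruxolitinib 2) with 1 library left out. The difference of the ruxolitinib effect, 1 gene, became 0 genes with no filter, quantile normalisation or the replicate block, 5 with array weights or the block with GC correction, 3 with GC correction, without the 2 libraries or with both, and 0 to 2 with 1 library left out.

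The labels do not say whether replicate numbers pair the libraries. Deviations of DMSO and ruxolitinib libraries of the same number correlated at 0.03, -0.03 and 0.05 over genes. Other pairs of groups ran from -0.15 to 0.15, and these values cannot exclude a pairing. With the replicate number as a block 112 genes passed (73 rises, 39 falls), 110 of them among the 187. Over the named genes and all these settings, 2251 values kept direction and side of the threshold, 329 kept direction and missed it, 64 newly passed, none past the test reversed, and 31 differed in sign with no call on either side. Counting error limits the genes of low level, such as Atp2a1 and Oas2.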

Other observations

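Some rises outside the gene lists kept their call with any single library left out and also passed in the combination against GSK-LSD1. They were chosen after their values were seen. Hk3, a hexokinase of myeloid cells, read 278, 256 and 272 normalised read counts in DMSO and 423, 402 and 346 after ruxolitinib, without overlap (log2 fold change 0.53 ± 0.08 SE, adjusted p = 0.00251), and its log2 fold change with GSK-LSD1 was 0.50. Unc5a overlaps it on the opposite strand. Tcn2, the vitamin B12 carrier transcobalamin 2, went from 343, 317 and 342 to 442, 491 and 428 (log2 fold change 0.44 ± 0.07 SE, adjusted p = 0.00397, 0.38 with GSK-LSD1). Plxnd1, a semaphorin receptor, went from 296, 276 and 289 to 414, 392 and 361 (log2 fold change 0.43 ± 0.08 SE, adjusted p = 0.00722, 0.54 with GSK-LSD1). St3gal1, a sialyltransferase, went from 494, 488 and 454 to 664, 669.9 and 679, with the 3 ruxolitinib libraries close together (log2 fold change 0.49 ± 0.06 SE, adjusted p = 0.000541, 0.41 with GSK-LSD1).

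Saa3, an acute phase protein gene, was a fall of the same kind, from 99.3, 76 and 99 to 55.7, 44.2 and 47.4 (log2 fold change -0.88 ± 0.14 SE, adjusted p = 0.00381), though with GSK-LSD1 it did not pass (-0.42, adjusted p = 0.189).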
